A study of Rattus norvegicus with 12 samples.

Results

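The Zfp genes are the rat genes whose symbol is Zfp followed by a number, the name given to zinc finger proteins that were found one after another and numbered. Of 14217 genes with a probe set annotated to that gene alone, 217 carry such a symbol once Zfp36, Zfp36l1 and Zfp36l2, which belong to another kind of zinc finger protein, are left out. Each gene was represented by its probe set with the highest mean over the 12 arrays. The probe sets of 164 of the 217 were bright enough to be tested, which meant a mean that reached the 40th percentile of all probe sets, an intensity of about 42.2. Just inside that limit lay Zfp867 and Zfp658, with mean intensities of 42.8 and 44.7, and just outside it lay Zfp691 and Zfp707, with 44.3 and 44.6, because the limit applies to the mean of the log2 values. The mean intensities of the 164 ran from 42.8 to 718.

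The samples were right lungs of Dahl salt-sensitive (SS) rats, an inbred strain that becomes hypertensive on a salty diet, and of Brown Norway (BN) rats, an inbred strain often used as its comparison. Rats of 250 to 350 g were controls or were ventilated in a mode written HTV in the labels, an abbreviation left unexplained there. The 4 groups were SS control, SS HTV, BN control and BN HTV, with 3 arrays each and a code of its own in each title. Whether those codes are separate animals is not stated, and a p-value here covers the spread between samples only. Neither a transgene nor a drug is named, the description field of every array, HTV arrays included, mentions room air, and neither age nor sex is stated. In all groups the lung vessels were flushed with saline before the lung was frozen.

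Most Zfp proteins hold a row of Cys2His2 zinc fingers, each a small loop folded around a zinc ion that reads a few bases of DNA. Many also carry a KRAB domain, which recruits the corepressor Trim28 and the histone methyltransferase Setdb1 to silence transposons and genes, and such genes lie in clusters that grew by duplication. Messenger RNAs for zinc finger transcription factors are known from cultured cells as short-lived, so their level follows changes in transcription quickly. The comparison asks whether they fall together under HTV. Half-lives were not measured here, and an array gives only a level.

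One array has to be named before the results. SS control 3 had the lowest mean correlation with its own group, 0.950 against 0.964 to 0.975 for the other 11 arrays, and it did not match its strain at every gene. RT1-CE5, a gene of the major histocompatibility complex, read 498.4 there, against 0.7 to 2.2 on the other SS arrays and 714.1 to 1052.6 on BN arrays. Aox1, an aldehyde oxidase, had 38.1 on this array, against 238.0 to 274.9 on the other SS arrays and 38.0 to 64.1 on BN arrays. At Echdc2 the array went with its label, at 372.2 against 219.4 to 276.0 in other SS and 3.6 to 31.7 in BN arrays. It was kept as labelled, and the main counts, with many of the calls that rest on it, are given without it too. These genes were picked with their values known.

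Under HTV the median level of the Zfp genes was lower in both strains. On the log2(intensity + 16) scale, each gene's level on an array was set against its own mean over the 12 arrays. The median of the 164 genes was then 0.09, 0.06 and 0.09 on the SS control arrays and 0.09, 0.16 and 0.10 on the BN control arrays. The same median was -0.14, -0.05 and -0.13 on the SS HTV arrays and -0.08, -0.11 and -0.03 on the BN HTV arrays. All 6 control arrays thus lay above all 6 HTV arrays, whereas the median of all 10554 kept genes stayed between -0.03 and 0.02 on every array. Between 37 and 64 of the 164 genes lay below their own mean on a control array, and between 98 and 131 did on an HTV array.

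**Figure D1:**
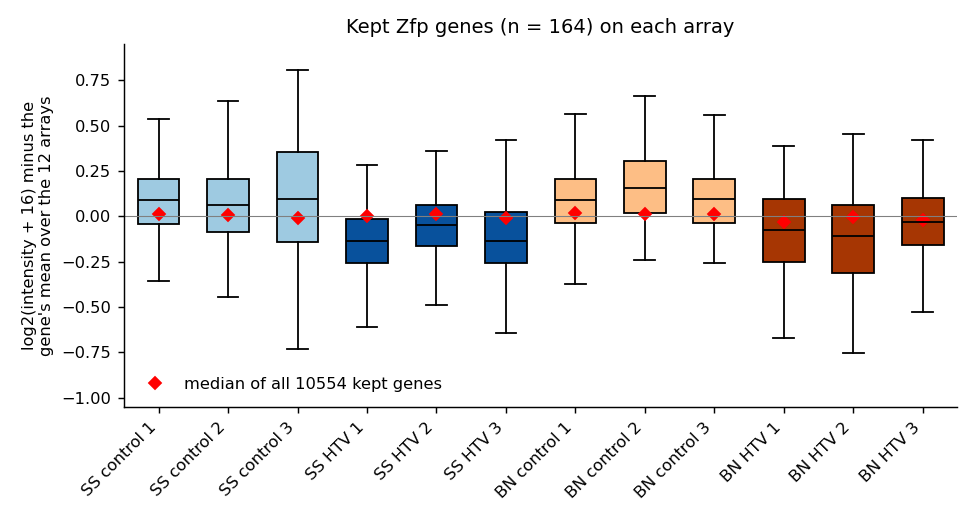
Level of the 164 kept Zfp genes on each of the 12 arrays, as log2(intensity + 16) minus the gene's mean over all arrays. Boxes show the median and the quartiles, whiskers reach the farthest value within 1.5 times the box's height, and red diamonds show the median of all 10554 kept genes. The Zfp medians of the 6 control arrays lie at 0.06 or above and those of the 6 HTV arrays at -0.03 or below.

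Averaged over the strains, 53 of the 164 Zfp genes fell with HTV and 4 rose (limma, Benjamini-Hochberg adjusted over all 18625 kept probe sets, threshold 0.05). The falling genes were 32.3% of those tested, against 8.66% of all 10554 kept genes, and the rising genes 2.44% against 6.83%. The median difference over the 164 was -0.17, with quartiles of -0.37 and -0.03, and the median over all genes was -0.02. The log2 difference was below 0 for 129 of the 164, or 78.7%, against 54.5% of all genes. All 6 HTV arrays lay below all 6 control arrays for 27 Zfp genes, 16.5% against 3.65% of all genes, and above them for 2, Zfp619 and Zfp592, 1.22% against 2.75%.

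With no filter on brightness, over all 217 genes, 53 fell and 3 rose, 24.4% and 1.38%, against 5.9% and 4.59% of the 14217 genes. The genes were also counted by brightness. Among the 62 Zfp genes with a mean intensity below 100, 17 fell (27.4%), against 6.34% of the 2462 genes in that range. Among the 102 at or above 100, 36 fell (35.3%), against 9.37% of 8092. Without SS control 3, 49 of the 164 fell and 2 rose, 29.9% lower against 8.88% of all genes, and 48 of the 49 were among the 53.

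Markers of some blood cells differed between the same arrays. Of 7 listed neutrophil markers 6 were kept, and 5 rose with HTV, with a median difference of 2.12. Their summed intensity was 1949 to 2384 in SS controls, 5586 to 8891 in SS HTV, 1154 to 2456 in BN controls and 3086 to 11913 in BN HTV arrays. Of 9 T and NK cell markers, all kept, 4 fell and 0 rose, with a median of -0.35, and their sums were 1145 to 1900, 1017 to 1048, 1031 to 1108 and 662 to 902 in the same order of groups. Ngp, a neutrophil marker, had no probe set annotated to it alone. Markers of alveolar type 2 cells (6 of 6 kept), club and ciliated cells (3 of 5) and endothelium (5 of 6) had medians of 0.03, 0.00 and 0.07, with 1 endothelial marker, Cldn5, raised. Of the red cell and platelet markers (3 of 5 kept) 2 rose, with a median of 1.07, and their sums were 1162 to 5113, 3341 to 5080, 800.3 to 2908 and 2773 to 4369. Among macrophage and monocyte markers (4 of 5) Cd14 rose and the median was 0.05, and among alveolar type 1 markers (4 of 5) Aqp5 fell and the median was -0.11. Smooth muscle and fibroblast (5 of 5) and cardiac muscle markers (3 of 4) had none past the test and medians of 0.04 and 0.55. In whole lung, fewer cells of a type and less RNA per cell cannot be told apart, and the part of these shifts in the Zfp result was not tested.

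In SS lungs 25 Zfp genes fell and 3 rose, 15.2% and 1.83% of the 164, where 4.11% of all genes fell and 3.88% rose (limma, adjusted p below 0.05). The median difference was -0.20 against -0.01 over all genes, and 116 of 164, or 70.7%, lay below 0, against 51.4%. The 3 SS HTV arrays lay below the 3 SS control arrays for 62 genes, 37.8% against 16.6% of all genes. In BN lungs 17 fell and 1 rose, 10.4% and 0.61%, where 2.65% of all genes fell and 2.97% rose. The BN median was -0.18 against -0.03, 129 lay below 0 (78.7% against 56.5%), and the arrays did not overlap downwards for 65 (39.6% against 16.2%).

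These counts moved with single arrays. Without SS control 3 the SS count was 17 lower and 1 higher, with 16 of the 17 among the 25, and 10.4% lower stood against 2.44% of all genes. The SS count of lower genes was 9 without SS HTV 1, 5.49% against 1.5% of all genes. It was 12 without SS HTV 3 (7.32% against 1.66%) and 16 without SS control 2 (9.76% against 2.26%). The BN count was 6 without BN control 2, 3.66% against 1.27% of all genes. It was 8 without BN control 3 or BN HTV 2 (4.88%, against 1.26% and 1.21%). Without BN control 1 or BN HTV 1 it was 9 (5.49%, against 1.23% and 1.19%). Without SS control 3 it was 24, 14.6% against 3.93% of all genes. The medians moved less, between -0.21 and -0.17 in SS and between -0.20 and -0.17 in BN over the same 12 omissions.

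Lowered in both strains, each by its own test, were Zfp111, Zfp329, Zfp503, Zfp318, Zfp672, Zfp217 and Zfp780b. These 7 are 28% of the 25 lowered in SS and 41.2% of the 17 lowered in BN, and 4.27% of the 164 against 1.22% of all genes. Without SS control 3 the count lowered in both was 10, which held 6 of the 7, and Zfp672 no longer passed in SS. The genes that joined were Zfp706, Zfp715, Zfp608 and Zfp266. The strains share no arrays, and each of the 25 genes lowered in SS had a difference below 0 in BN, as each of the 17 lowered in BN had in SS. The same share was not counted over all genes lowered in either strain, so it is not shown to be particular to Zfp genes. Both differences were below 0 for 100 of the 164 (61% against 36.4% of all genes) and both above 0 for 19 (11.6% against 28.4%).

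Across the 164 Zfp genes the SS and BN differences correlated at Pearson's r = 0.59 (Spearman's rho 0.56), and across all 10554 genes at 0.65 (rho 0.46). Genes on the same arrays are not independent, so these values only describe the scatter. The Zfp genes scattered around a centre that lay lower in both strains.

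**Figure D2:**
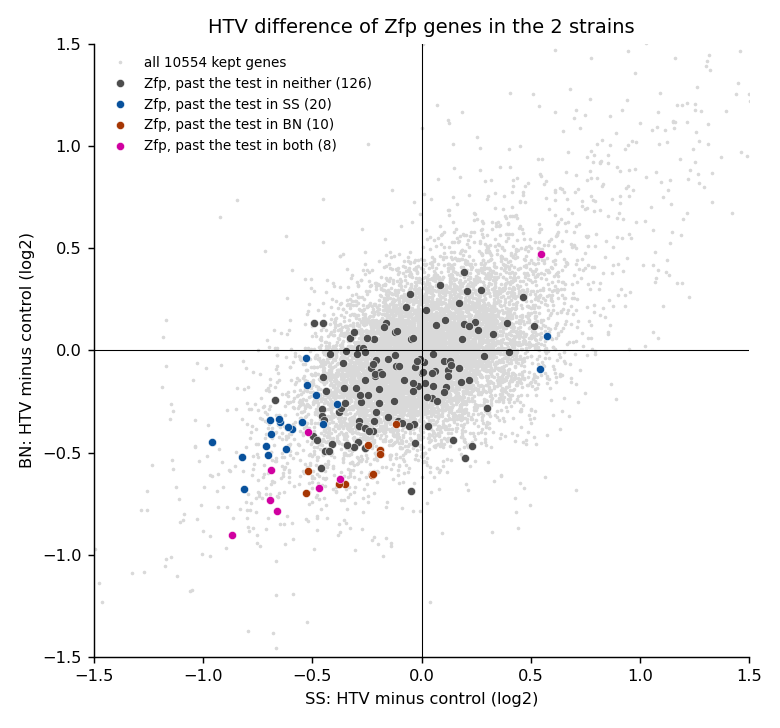
HTV minus control in SS (horizontal) and in BN lungs (vertical), as log2 differences, for the 164 Zfp genes (large points, coloured by the test passed, in either direction) and all 10554 kept genes (grey). The axes stop at 1.5, which leaves 89 genes and 0 Zfp genes outside. The 7 points at the lower left that passed in both strains are the genes named in the text, and the single point that passed in both at the upper right is Zfp619.

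Zfp111, a KRAB zinc finger gene, had the largest fall in the mean of the strains. Its intensity was 95.1, 111.4 and 110.5 on the SS control arrays and 41.6, 57.3 and 53.4 on the SS HTV arrays. In BN it was 90.4, 73.4 and 75 in controls and 48.3, 20.6 and 40 with HTV. No HTV array reached a control array, and the log2 differences were -0.87 ± 0.19 in SS (limma SE, adjusted p = 0.015) and -0.91 ± 0.19 in BN (adjusted p = 0.014). The SS call was lost without SS HTV 1 and the BN call without BN control 1.

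Zfp329 stood at 118.5, 118.6 and 126.1 in SS controls and at 64.9, 78.1 and 69.6 with HTV. BN controls had 102.9, 110.1 and 116.9, and BN HTV arrays 49.9, 50.2 and 73.1. The groups were apart in both strains, by -0.66 ± 0.14 in SS and -0.79 ± 0.14 in BN (limma, adjusted p = 0.012 and 0.0047). The SS call was lost without SS HTV 1, and the BN call held under each omission.

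Zfp503 encodes a transcriptional repressor of the NET family that acts in developing tissues. SS control arrays had 844, 768.2 and 760.6 and SS HTV arrays 463.1, 548.9 and 439.9. BN controls had 903.4, 889.1 and 767.9, while the BN HTV arrays spread from 407.6 and 450.3 to 706.5 on BN HTV 3. The highest HTV array still lay below the lowest control, and the differences were -0.70 ± 0.17 and -0.73 ± 0.17 (limma, adjusted p = 0.023 and 0.021). In SS the adjusted p missed the threshold when control 1 or 2 or HTV 1 or 3 was omitted, and in BN when control 1 or 2 or HTV 1 or 2 was, while the mean of the strains passed under each omission. Its other 2 kept probe sets had -0.31 and -0.35 in the mean of the strains and did not pass (adjusted p = 0.103 and 0.16). The other member of that family, Zfp703, had a mean difference of -0.40 ± 0.12 (adjusted p = 0.04), with arrays that overlapped in each strain, and it passed under 4 of the 12 omissions.

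Zfp318, a nuclear protein that B cells need to make immunoglobulin D, had 235.1, 255.2 and 278.6 in SS controls and 171.9, 157 and 130.9 with HTV. In BN the controls had 243.4, 288.4 and 284.4 and the HTV arrays 175.3, 174.1 and 176.9. The 6 HTV values were all below the 6 control values, with differences of -0.69 ± 0.12 and -0.59 ± 0.12 (limma, adjusted p = 0.0038 and 0.012). The BN call was lost without BN control 2 or BN control 3. A second probe set of Zfp318 had -0.17 ± 0.10 in the mean of the strains and did not pass. The B cell marker Ms4a1 also fell, by 0.73 ± 0.16 (limma, adjusted p = 0.0083). Of the 4 listed B cell markers 2 had a probe set and Ms4a1 alone was kept. Their summed intensity was 181.8 to 282.5 in SS and 216.5 to 272.6 in BN controls and 62.2 to 101.7 and 87.3 to 175 with HTV, and the part of B cells in the Zfp318 result was not tested.

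Zfp217, an oncogene product that works with corepressor complexes, had 341.5, 342.3 and 323.6 in SS controls and 246.9, 258.7 and 259.7 with HTV. In BN it went from 407.6, 367.8 and 368 to 246.9, 227 and 248.3. The HTV arrays of both strains lay within a narrow band below all controls, with differences of -0.38 ± 0.09 in SS and -0.63 ± 0.09 in BN (limma, adjusted p = 0.026 and 0.0016). In SS the call was lost when any one of 5 of the 6 SS arrays was left out, whereas in BN it held under each omission. Zfp672 was at 103.5, 112.1 and 114.8 in SS controls, 68, 86.4 and 72 in SS HTV, 89.5, 84.9 and 87.9 in BN controls and 47.9, 53.5 and 45.1 in BN HTV arrays. Its differences were -0.47 ± 0.12 and -0.68 ± 0.12 (adjusted p = 0.033 and 0.0055). The SS call was lost without SS control 2, SS HTV 1 or SS HTV 3 too, and the value was -0.44 ± 0.13 in SS without SS control 3 (adjusted p = 0.078). Zfp780b was at 160.9, 155.8 and 172 in SS controls, 111.8, 115.4 and 99.3 in SS HTV, 166.9, 186.6 and 175.9 in BN controls and 123.3, 132.8 and 133.9 in BN HTV arrays. Its arrays did not overlap in either strain, and its differences were -0.52 ± 0.11 and -0.40 ± 0.11 (adjusted p = 0.011 and 0.046). The SS call was lost without SS HTV 3, and the BN call passed under 1 of the 12 omissions, that of SS control 3.

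**Figure D3:**
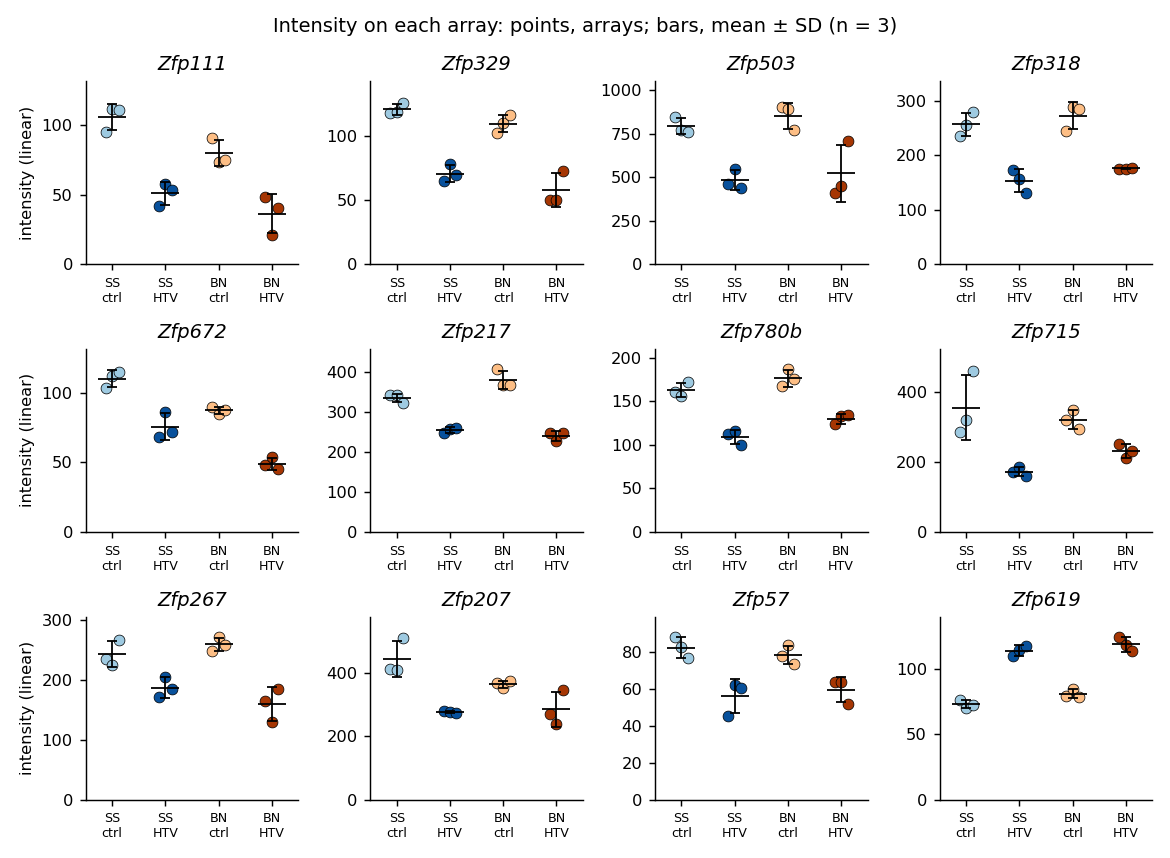
Linear intensity of 12 Zfp genes on each array (points) with the mean and SD of each group (bars, n = 3), all axes starting at 0. The first 7 panels are the genes lowered in both strains, Zfp715 and Zfp207 passed in SS, Zfp267 in BN, Zfp57 in the mean of the strains, and Zfp619 rose in both.

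The sequence upstream of the start site is shown, as a description, for the genes lowered in both strains. Its part in their fall was not tested. Of the 7, 5 have an entry in the RefSeq promoter table for the assembly GRCr8, and Zfp111 and Zfp780b were not matched. Each line gives the 90 bases that end just before the annotated start, 5′ to 3′ on the gene's strand, with GC boxes (GGGCGG or its reverse complement CCGCCC) in capitals. The stretches lie at chr3:179321694-179321783 on the minus strand for Zfp217, chr9:22099143-22099232 on the minus strand for Zfp318, chr1:82494202-82494291 on the minus strand for Zfp329, chr15:2362360-2362449 on the plus strand for Zfp503 and chr10:43005227-43005316 on the minus strand for Zfp672.
Zfp217: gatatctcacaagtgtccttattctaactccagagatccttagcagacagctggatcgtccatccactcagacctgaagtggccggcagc
Zfp318: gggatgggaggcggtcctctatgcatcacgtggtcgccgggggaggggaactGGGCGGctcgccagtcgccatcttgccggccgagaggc
Zfp329: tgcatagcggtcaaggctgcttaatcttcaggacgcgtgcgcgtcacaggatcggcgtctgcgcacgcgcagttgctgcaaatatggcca
Zfp503: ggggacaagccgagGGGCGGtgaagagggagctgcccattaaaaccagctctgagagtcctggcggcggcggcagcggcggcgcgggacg
Zfp672: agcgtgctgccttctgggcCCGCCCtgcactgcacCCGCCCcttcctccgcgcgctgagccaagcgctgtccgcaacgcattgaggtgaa

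The 5 are not alike letter for letter, but 4 of them are rich in CpG dinucleotides: the full 300-base windows hold 24 in Zfp318, 21 in Zfp329, 22 in Zfp503 and 25 in Zfp672, and 9 in Zfp217. The windows run from 250 bases before to 50 bases after the start, and 175 of the 217 Zfp genes have one. Their median was 16 CpG dinucleotides and 56.3% G plus C, against 7 and 51.7% over all 33469 windows of the table. The motifs named here were searched on both strands. A GC box was in 44% of the Zfp windows and 32.3% of all windows, the letters CCAAT in 41.1% and 37.3%, and the ETS-type letters CCGGAAG in 20% and 8.55%. The letters ACTACAA, part of the site of the activator Zfp143, were in 8.57% and 3.39%, and TATAAA in 8.57% and 14.4%. These motifs can overlap in the CpG-rich windows, and a match is a description of letters.

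Between Zfp genes that fell in the mean of the strains and kept Zfp genes that did not, the windows gave these shares. A GC box was in 17 of the 39 lowered genes with a window (43.6%) and 44 of the 94 others (46.8%), CCGGAAG in 23.1% and 20.2%, and CCAAT in 38.5% and 44.7%. TATAAA was in 0 of the 39 and in 13 of the 94. The median CpG number was 17 in the lowered genes and 18 in the others.

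The largest SS difference of the 164 belonged to Zfp715. It had 286.5, 319.3 and 460.4 in SS controls and 170.9, 184.6 and 159.6 with HTV. In BN it had 320.5, 347.2 and 295.4 in controls and 251.5, 210.1 and 231.3 with HTV. The groups did not overlap in either strain, with SS control 3 the highest array. The SS difference was -0.96 ± 0.15 (limma, adjusted p = 0.0023) and -0.76 ± 0.12 without SS control 3 (adjusted p = 0.0032), and the BN difference was -0.45 ± 0.15 (adjusted p = 0.11).

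Other genes that fell in SS lungs, but did not pass in BN, were Zfp455, Zfp758, Zfp710, Zfp608, Zfp157, Zfp846, Zfp770, Zfp207, Zfp347, Zfp386 and Zfp266, between -0.82 and -0.59. Zfp455 fell by 0.82 ± 0.17 and Zfp386, also called Kzf1, by 0.61 ± 0.14 (limma, adjusted p = 0.011 and 0.016), calls lost without SS HTV 1 and SS HTV 3, respectively. Smaller falls in SS were those of Zfp729, Zfp518a, Zfp280d, Zfp292, Zfp706 and Zfp148, between -0.55 and -0.39. Without SS control 3 the SS falls of Zfp758, Zfp846, Zfp770, Zfp347, Zfp729, Zfp518a, Zfp292 and Zfp148 did not pass. Their adjusted p then ran from 0.051 to 0.112 (limma). In the same fit Zfp608 and Zfp266 also passed in BN (adjusted p = 0.028 and 0.044). Of the 25 SS falls, those of Zfp715, Zfp157, Zfp318, Zfp266 and Zfp207 were kept when any one of the 12 arrays was left out. The corresponding BN differences of these genes ran below 0 throughout, for example -0.38 ± 0.11 for Zfp266 (adjusted p = 0.068).

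Zfp207 encodes a spindle protein that loads the checkpoint protein Bub3 onto kinetochores. It had 411.3, 410.7 and 511.2 in SS controls and 279.8, 275.9 and 273.6 with HTV, a difference of -0.65 ± 0.13 (limma, adjusted p = 0.0094). In BN it had 367.4, 351.1 and 374.2 against 271.4, 238.8 and 346.4, a difference of -0.35 ± 0.13 (adjusted p = 0.15). The arrays did not overlap in either strain. A second probe set of Zfp207 gave 0.05 ± 0.10 in the mean of the strains, so the fall is that of 1 of its 2 probe sets.

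Genes that fell in BN lungs but did not pass in SS were Zfp61, Zfp267, Zfp799, Zfp346, Zfp94, Zfp287, Zfp384, Zfp142, Zfp275 and Zfp219, between -0.70 and -0.36. Zfp267 had 249, 270.8 and 257.6 in BN controls and 164.6, 129.9 and 185.5 with HTV. In SS it had 235.7, 225.5 and 266.9 against 170.7, 205.3 and 185. The groups were apart in both strains, with differences of -0.66 ± 0.13 in BN and -0.35 ± 0.13 in SS (limma, adjusted p = 0.0098 and 0.11). Of the 17 BN falls, those of Zfp267, Zfp217, Zfp329 and Zfp672 held when any one array was left out.

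Among these, Zfp346, or JAZ, binds double-stranded RNA, and it fell by 0.61 ± 0.12 in BN (limma, adjusted p = 0.011) and had -0.23 ± 0.12 in SS. Its BN call was lost without BN control 2. Zfp384, also known as CIZ or NMP4, regulates genes of the extracellular matrix in bone and other tissues. It had 422.1, 341 and 362.8 in BN controls and 253, 238.7 and 284.1 with HTV, a difference of -0.51 ± 0.12 (adjusted p = 0.025), and -0.19 ± 0.12 in SS, where the arrays overlapped. Its BN call was lost without BN control 1, BN control 3, BN HTV 1 or BN HTV 2. In the mean of the strains both genes passed under each omission.

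Genes with a textbook role were not all lowered. Zfp57, which protects methylation at imprinted genes, had 87.9, 82.5 and 76.6 in SS controls, 45.4, 62.2 and 60.5 in SS HTV, 78, 83.6 and 73.4 in BN controls and 63.7, 63.6 and 51.7 in BN HTV arrays. It was dim but its 6 HTV arrays lay below its 6 control arrays, with a mean difference of -0.39 ± 0.10 (limma, adjusted p = 0.014). Zfp148, or ZBP-89, binds GC-rich promoters and fell by 0.32 ± 0.08 in the mean of the strains (adjusted p = 0.011). Zfp354a, the kidney KRAB gene Kid1, fell by 0.33 ± 0.10 (adjusted p = 0.041), and Zfp260 by 0.32 ± 0.08 (adjusted p = 0.019). Zfp57 and Zfp148 passed under each of the 12 omissions, Zfp260 under 10 (not without BN control 1 or SS HTV 3) and Zfp354a under 2.

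Others with known roles did not pass in the mean of the strains. Zfp91, a ubiquitin ligase, had 398, 409.1 and 529.7 in SS controls and 420.7, 506.6 and 421 with HTV, and in BN 418.9, 525.6 and 432.1 against 516.9, 534.9 and 526.3. The groups overlapped in both strains, and the mean difference was 0.11 ± 0.09 (limma, adjusted p = 0.46). The repressor Zfp281 had -0.16 ± 0.09, the adipocyte regulator Zfp423 0.01 ± 0.14 (-0.10 without SS control 3), Zfp598, which detects collided ribosomes, 0.12 ± 0.09, and Zfp593 0.17 ± 0.12. Another kept probe set of Zfp423 rose in SS by 0.56 ± 0.14 (limma, adjusted p = 0.030). That probe set had -0.29 ± 0.14 in BN and did not pass in the mean of the strains. A p that misses the threshold does not show that these genes stayed level.

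Few Zfp genes went up. Zfp619 was the single one that rose in both strains, 0.61% of the 164 against 1.89% of all genes. It had 76.2, 70.1 and 72.5 in SS controls and 109.5, 114.5 and 117.4 with HTV. In BN it had 79.4, 84.6 and 78.5 in controls and 124.3, 117.8 and 113.5 with HTV. All 6 HTV arrays lay above all 6 controls, with differences of 0.55 ± 0.11 in SS and 0.47 ± 0.11 in BN (limma, adjusted p = 0.0086 and 0.02). The BN call was lost without BN control 1, BN control 3, BN HTV 1 or BN HTV 2.

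In the mean of the strains Zfp622, a factor in the maturation of the large ribosomal subunit, rose by 0.29 ± 0.09, Zfp592 by 0.28 ± 0.08 and Zfp422 by 0.25 ± 0.08 (limma, adjusted p = 0.041, 0.034 and 0.041). These passed under 2, 5 and 4 of the 12 omissions. In SS alone Zfp746, or PARIS, a substrate of the ligase Parkin, rose by 0.57 ± 0.16 and Zfp469, the brittle cornea gene, by 0.54 ± 0.14 (adjusted p = 0.045 and 0.036). Without SS control 3 these were 0.48 ± 0.17 and 0.46 ± 0.15 and did not pass (adjusted p = 0.13 and 0.10). SS control arrays of Zfp746 had 216.3, 147.4 and 142.9, so the first array lay well above the others, and the HTV arrays had 272, 240.3 and 253.7.

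No Zfp gene passed the test of whether the HTV difference itself differed between the strains, and neither did any of the 10554 genes (limma interaction term, adjusted p below 0.05). At an unadjusted p below 0.05 there were 8 Zfp genes with a lower and 6 with a higher difference in BN, 4.88% and 3.66%, against 4.98% and 3.55% of all genes. Among the probe sets that represent the Zfp genes the smallest p belonged to Zfp605. It had 0.20 ± 0.15 in SS and -0.53 ± 0.15 in BN, an interaction of -0.73 ± 0.21 (unadjusted p = 0.0038, adjusted p = 0.53). Another probe set of Zfp423 had an interaction of -0.86 ± 0.20 (limma, unadjusted p = 0.00096, adjusted p = 0.53). For Zfp605 the SS control arrays had 55.9, 52.8 and 82.1 and the SS HTV arrays 69.9, 80.6 and 72.7. Its BN controls had 101.2, 118.4 and 95.4 and its BN HTV arrays 70.3, 67.1 and 65.5. The BN groups were apart, and the SS groups overlapped through SS control 3 alone. Without that array the differences were 0.36 ± 0.13 in SS and -0.53 ± 0.12 in BN (adjusted p = 0.13 and 0.018), and the interaction was -0.89 ± 0.18 (adjusted p = 0.61). The genes named above as past the test in SS or in BN alone are therefore not shown to differ between the strains.

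Between the control lungs of the strains 4 Zfp genes were lower and 9 higher in BN, 2.44% and 5.49%, where 5.83% of all genes were lower and 5.11% higher (limma, adjusted p below 0.05). Without SS control 3 there were 2 lower and 6 higher, where 5.15% of all genes were lower and 4.18% higher. With each array centred on its median there were 9 lower and 2 higher, and with quantile normalization 5 and 7. The share of all genes was not counted under either scaling, so a change particular to Zfp genes is not shown. The beta-actin 5′ to 3′ signal ratio, a sign of RNA integrity, was lower in BN by 0.47 in log2 (two-sided exact permutation test over 6 and 6 arrays, p = 0.0498). With that ratio as a covariate 4 were lower and 7 higher, again with no share of all genes counted. Between HTV and control arrays the ratio differed by -0.07 (exact permutation test, p = 0.784). With it as a covariate 56 Zfp genes fell in the mean of the strains, 34.1% against 10.2% of all genes. Without it these shares were 32.3% and 8.66%. The part of RNA integrity in the Zfp result was not tested.

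Between control lungs, Zfp706, a small protein with a single zinc finger, was the 1 of the 13 strain calls that passed under each of the 12 omissions. It had 365.4, 452.2 and 380.2 in SS controls and 274.5, 267 and 283 in BN controls, a difference of -0.51 ± 0.10 (limma, adjusted p = 0.0084). With HTV it had 267.3, 294 and 298 in SS and 206.6, 207.5 and 216.7 in BN, a difference of -0.42 ± 0.10 (adjusted p = 0.025). The strains did not overlap in either condition, and with HTV the gene fell in SS by 0.45 ± 0.10 (adjusted p = 0.018). The SS call was lost without SS control 2 or SS HTV 1, and the HTV strain difference without SS HTV 2, SS HTV 3, BN HTV 1 or BN HTV 2.

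Zfp664 was also lower in BN in both conditions, by 0.51 ± 0.12 in controls and 0.64 ± 0.12 with HTV (limma, adjusted p = 0.018 and 0.0067). The control difference was lost without BN control 2 or BN control 3. Zfp189 and Zfp148 were lower in BN controls by 0.52 ± 0.15 and 0.42 ± 0.11, and did not pass without SS control 3. The other kept probe sets of Zfp148 had 0.48 ± 0.12, which is higher in BN (adjusted p = 0.021), and -0.09 ± 0.11, and the mean over its probe sets was -0.0057 (adjusted p = 0.98), so the strain difference of Zfp148 has no single direction. Higher in BN controls were Zfp605, Zfp64, Zfp687, Zfp287, Zfp692, Zfp341, Zfp358, Zfp219 and Zfp771, between 0.34 and 0.62. Of these Zfp64, Zfp358 and Zfp219 did not pass without SS control 3 (limma, adjusted p = 0.056, 0.082 and 0.062). Zfp287 passed under 1 of the 12 omissions. The other kept probe set of Zfp692 had 0.03 ± 0.21 (adjusted p = 0.93). With HTV, Zfp672 and Zfp706 were lower in BN beside Zfp664, and Zfp143, Zfp236 and Zfp330 were higher, 1.83% of the 164 each way against 3.94% and 3.18% of all genes. Zfp143, an activator of small nuclear RNA and many other genes, had 115.1, 106.4 and 89.4 on SS HTV arrays and 159.8, 176 and 183.4 on BN HTV arrays, a difference of 0.66 ± 0.12 (adjusted p = 0.0043). This call and that of Zfp664 passed under each omission. The other kept probe set of Zfp143 had -0.22 ± 0.12 (adjusted p = 0.29), and the mean over both was 0.22 (adjusted p = 0.21), so the call is that of 1 probe set. That of Zfp236 is too, since its other kept probe set had 0.12 ± 0.13 (adjusted p = 0.62). The calls of Zfp236, Zfp330 and Zfp672 with HTV passed under 8, 7 and 8 of the 12 omissions. A base that differs between strains under a probe can also change a signal, and probe sequences were not used here.

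Genes with the other symbols given to zinc finger families were counted in the same way, by symbol. Of 55 genes named Zbtb, Zscan, Zkscan or Znf with a number, 44 were kept. In the mean of the strains 14 fell (31.8%, limma, against 8.66% of all genes), with a median of -0.15. In that mean 4 of the 44 rose, where 6.83% of all genes did. In SS 9 fell (20.5% against 4.11%), and 23 of the 44 lay below 0, where 51.4% of all genes did. In BN 8 fell (18.2% against 2.65%), and 34 lay below 0, where 56.5% of all genes did. By its symbols the list also holds the opposite-strand genes Zbtb8os and Zbtb11os1 and the pseudogene Znf16l-ps1. Of these Zbtb8os and Znf16l-ps1 were kept, and neither passed the test. Zbtb18, a repressor of neuronal and muscle genes, fell by 0.79 ± 0.07, Zbtb11 by 0.66 ± 0.09 and Znf846 by 0.79 ± 0.12 (adjusted p = 9.2e-06, 0.00037 and 0.00067), while Zbtb21 rose by 0.64 ± 0.09 (adjusted p = 0.00032). The 4 that rose were Zbtb21, Znf750, Zbtb7c and Zbtb43.

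The partners of KRAB proteins were counted next. Of 24 listed corepressor genes, 18 were kept, and 2 fell and 0 rose, with a median of -0.07. The 11.1% that fell is near the 8.66% of all genes. Those that fell were Morc3, an ATPase of silenced chromatin, by 0.42 ± 0.08 and Setdb1 by 0.31 ± 0.07 (limma, adjusted p = 0.0045 and 0.012). Of 27 listed genes of messenger decay, 22 were kept, and Cnot6l, a deadenylase, and Pan2 fell by 0.43 ± 0.10 and 0.28 ± 0.09 while Tob2 and Tob1, which bring in deadenylases, rose by 0.45 ± 0.12 and 0.34 ± 0.09 (adjusted p = 0.014, 0.046, 0.018 and 0.019). The 2 that fell are 9.09% of the 22, and the 2 that rose are as many, near the 8.66% and 6.83% of all genes.

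Early-response genes are another class with messengers known to be short-lived. Of 30 listed early-response genes, 28 were kept, and 19 rose and 2 fell in the mean of the strains, where 6.83% of all genes rose and 8.66% fell. Their median was 0.63, and 7 of the 28 had a difference below 0. Atf3 rose by 2.70 ± 0.19, Nr4a1 by 2.22 ± 0.13 and Fos by 1.63 ± 0.10, and Id3 fell by 1.92 ± 0.12 (limma, adjusted p = 1.3e-06, 2.4e-07, 3.5e-07 and 4.4e-07). The excluded gene Zfp36, which encodes tristetraprolin, a protein that binds AU-rich elements and speeds messenger decay, was among the raised. It had 855.8, 875.0 and 423.0 in SS controls, 2115.9, 1452.6 and 1947.0 in SS HTV, 762.7, 1107.5 and 1324.2 in BN controls and 2567.1, 2477.9 and 2058.1 in BN HTV arrays. The groups were apart in both strains, and the mean difference was 1.28 ± 0.18 (adjusted p = 0.00038). Its relatives Zfp36l2 and Zfp36l1 had 0.23 ± 0.09 and -0.05 ± 0.07 and did not pass.

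**Figure D4:**
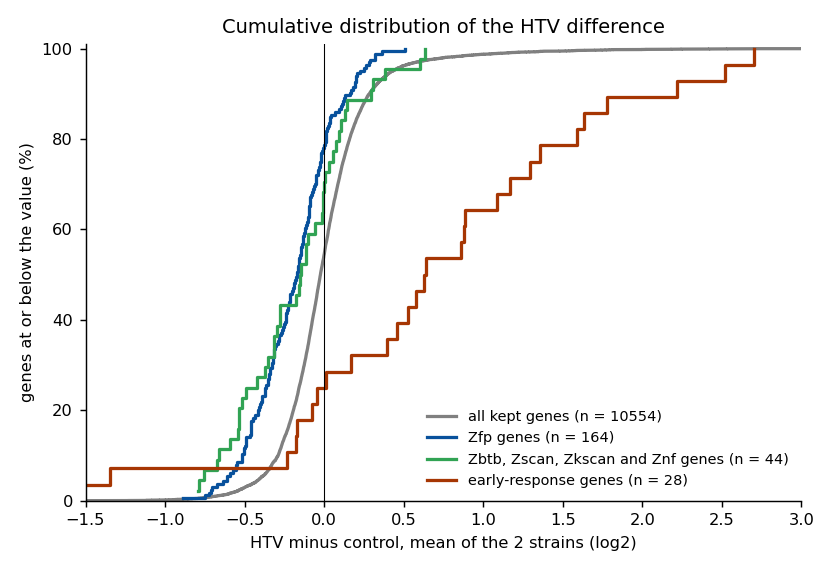
Share of genes (vertical, percent) at or below a given HTV minus control difference, mean of the 2 strains on the log2 scale (horizontal), for all kept genes, the 164 Zfp genes, 44 genes with the symbols Zbtb, Zscan, Zkscan or Znf and 28 early-response genes. At their medians the Zfp curve and that of the Zbtb, Zscan, Zkscan and Znf genes lie left of the curve of all genes, at -0.17 and -0.15 against -0.02. The early-response curve lies right of it there, at 0.63, but not at the far left, where Id3, at -1.92, is beyond the end.

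Position on the genome was described with RefSeq's gene order on GRCr8, where 212 of the 217 genes were matched. Of the kept genes, 63 had another gene named Zfp, Znf, Zscan or Zkscan as a direct protein-coding neighbour, and 97 had none. The lowered share was 33.3% (21 genes, median -0.23) with such a neighbour and 32% (31 genes, median -0.15) without, so falls were found inside and outside clusters. Of 18 pairs of kept Zfp genes that adjoin each other, both had a difference below 0 in 10, both fell in 5 and the signs were opposite in 7. Pairs that do not adjoin were not counted, so neighbours are not shown to move together.

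In a run of 4 neighbours 3 fell. Zfp26, Zfp426, Zfp266 and Zfp846 follow each other, with mean differences of -0.23 ± 0.09, -0.37 ± 0.10, -0.49 ± 0.08 and -0.55 ± 0.12 (limma, adjusted p = 0.10, 0.018, 0.0012 and 0.0083). Zfp266 had 377.8, 386.1 and 446.2 in SS controls, 263.6, 282.7 and 239.4 in SS HTV, 302.8, 354.5 and 342.8 in BN controls and 232.4, 243.3 and 280.5 in BN HTV arrays. Its groups did not overlap in either strain. Other neighbours parted. Zfp672 fell and Zfp692 beside it had -0.06 ± 0.08, and Zfp619 rose and Zfp939 beside it had -0.03 ± 0.12 (0.02 without SS control 3). The pairs Zfp455 and Zfp457, Zfp61 and Zfp94, and Zfp729 and Zfp729b fell together, and related copies can share probe signal.

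For 40 of the 164 genes more than 1 probe set was kept, and in 26 of these all probe sets had the same sign in the mean of the strains. Of the 13 such genes that fell, 10 had all their probe sets below 0 and 5 had a further probe set that fell by the same test. Zfp846 was among the latter, with -0.58 ± 0.11 on its second probe set (limma, adjusted p = 0.0037). Zfp287 was split, since the probe set that represents it fell by 0.56 ± 0.11 and its other rose by 0.27 ± 0.09 (adjusted p = 0.0037 and 0.049). Zfp207 fell on the representing probe set and had another above 0 that did not pass, at 0.05 (adjusted p = 0.78). Zfp292 also had a probe set above 0 that did not pass, at 0.30 (adjusted p = 0.28). All its other kept probe sets were below 0, and beside the representing one those at -0.51 and -0.36 passed (adjusted p = 0.0049 and 0.047). Probe sets can lie in different parts or ends of a gene, and their positions were not used here.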

How the data were processed

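Expression was measured on Affymetrix rat arrays. The deposited values are linear intensities made by the authors with MAS5, per the submitters' processing notes, which give no version; each array had a trimmed mean near 150, so arrays were already scaled. Of 31099 probe sets, 57 were controls and left out, 20826 were annotated to 1 gene, 436 to several and 9780 to none. Values were taken as log2(intensity + 16), and a fold change on that scale understates the change of dim genes. The 18625 probe sets whose mean log2 value reached the 40th percentile were kept.

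Group means of the 12 arrays were fitted in 1 model with limma 3.58.1 in R 4.3.3 (eBayes with a trend, 8 residual degrees of freedom), with Benjamini-Hochberg adjustment over all kept probe sets and a threshold of 0.05. The code was tested on simulated data. Contrasts were HTV minus control in each strain and in their mean, the interaction, and BN minus SS in controls and with HTV.

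The members, lists, markers and rules were chosen with earlier results of these data known. Named genes are those past the test (of each strain's falls up to 12 by rule, the rest after their values were seen), a list with known roles, the smallest p of each list, and, picked later, Zfp598, Ms4a1, the filter's edge and neighbouring genes. Alternatives were another pseudocount, filter, normalization, choice of probe set, array weights, fewer arrays, and a beta-actin covariate, the last chosen after seeing the data. The number of arrays limits the precision. The labels name no batch.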

Additional observations from a re-analysis of the deposited data

How the results depend on the processing

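No gene's call past the test reversed its direction under the alternatives run, but values near 0 changed sign, as did the interaction median of -0.042. The count of Zfp genes lower in the mean of the strains, 53, ran from 37 with a filter at the 60th percentile to 59 with array weights. These were 36.3% of 102 and 36% of 164 Zfp genes, against 9.85% and 11.9% of all genes. Over the 12 single-array omissions the count ran from 40 to 50 (24.4% to 30.5%, against 6.32% to 8.88% of all genes). Of 57 calls in that mean, 39 passed under each omission and 36 under all alternatives. With a pseudocount of 64 the medians of the Zfp genes were -0.15 in SS, -0.13 in BN and -0.13 in the mean. With each array centred on its median the SS median was -0.27, the interaction median 0.054, the mean of the strains had 2 higher, and the control strain comparison 9 lower and 2 higher in BN. Quantile normalization gave an interaction median of 0.014. With only the arrays compared in the fit, SS had 13 lower (7.93% against 1.85% of all genes) and 1 higher. That fit gave 0 higher in BN, and 2 lower and 1 higher in the control strain comparison. No filter gave 1 higher in SS. The 60th percentile filter gave 1 higher in SS, and 10 lower (9.8% against 2.98% of all genes) and 0 higher in BN. Averaging the probe sets of each gene gave 2 higher in the mean of the strains and 1 higher between HTV lungs. Array weights gave 14 higher between control lungs and 7 between HTV lungs. The beta-actin covariate, added after seeing the data, gave 5 higher in SS, 7 higher in the mean, and 1 lower and 1 higher between HTV lungs. The fit that dropped both SS control 3 and BN HTV 3, also added later, gave 1 higher in SS. That fit gave 28 lower in BN (17.1% against 4.3% of all genes), and 2 lower and 4 higher between control lungs. The cause of these changes was not tested.

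Over single-array omissions SS had 9 to 28 lower (5.49% to 17.1%, against 1.5% to 4.18% of all genes). It had 1 to 4 higher, where 2% to 3.94% of all genes rose. The SS medians were -0.21 to -0.17. BN had 6 to 24 lower (3.66% to 14.6%, against 1.19% to 3.93% of all genes). It had 0 to 1 higher, where 1.66% to 3.68% of all genes rose. The BN medians were -0.20 to -0.17. The mean had 1 to 4 higher, where 5.16% to 6.95% of all genes rose, and Zfp medians of -0.19 to -0.16. The interaction had 0 calls and medians of -0.049 to 0.010. Control lungs had 1 to 4 lower and 1 to 8 higher in BN, and HTV lungs 1 to 4 lower and 1 to 8 higher. No paired analysis was possible because the labels give each sample its own code and no replicate number shared across groups. Signal over background limits the dim genes.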

Other observations

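Probe sets that the annotation gives to several Zfp genes were not counted as members. Of 7 such probe sets 4 were kept. The one shared by Zfp1007l1, Zfp1007l2 and Zfp950l14 fell with HTV by 0.80 on the log2 scale in the mean of the strains, and the one shared by Zfp82 and Zfp14 fell by 0.38 (limma, adjusted p = 0.034 and 0.032). The probe set shared by Zfp729b and Zfp273l-ps1 had -0.32 and that shared by Zfp418l1 and Zfp418 had -0.21, and neither passed (adjusted p = 0.054 and 0.17). Which of the named genes gave these signals cannot be told from the arrays.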
